A study of Mus musculus with 6 samples.

Results

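Before a cell divides it must copy its genome once, and 36 genes of the machinery that does so were followed here in cultured mouse myeloid-derived suppressor cells (MDSCs), immature cells of the myeloid lineage that can hold T cells in check. The 36 genes were given as a list of symbols covering origin licensing, the replicative helicase, the polymerases with their clamp and loader, the maturation of Okazaki fragments and the assembly of chromatin behind the fork. Each symbol matched a single row among the 55359 gene rows of the count table, and all 36 passed the filter on low counts. Marrow of C57BL/6 animals was cultured for 4 days in GM-CSF (40 ng/ml) plus IL-6 (40 ng/ml), after which a kit took out the polymorphonuclear fraction. For the mtDNA group (3 libraries), cells plated afresh received mitochondrial DNA (250 ng/ml) with the transfection reagent that the labels spell Lipofactamine 2000, and RNA was taken after 12 h. The blank group (3 libraries) carries the treatment label "blank", and the labels do not say whether it received the lipid reagent. No library holds another transfected DNA, so an effect of mtDNA cannot be told apart from one of the reagent or of any DNA. Nothing in the labels ties a library to its own mouse or culture. The p-values therefore cover only the scatter among these 6 libraries, and that scatter may be technical.

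Origins are licensed in G1, when the origin recognition complex, Cdc6 and Cdt1 load the ring-shaped MCM2-7 helicase onto DNA. In S phase Cdc45 and the GINS complex join the ring and start it, primase and polymerase alpha lay down primers, replication factor C loads the sliding clamp PCNA, and polymerases delta and epsilon extend the strands. Many of these genes are transcribed under control of E2F factors at the passage from G1 to S, and their RNA is used as a sign of cycling cells. Bone marrow cultures with GM-CSF contain dividing myeloid precursors beside maturing cells that have left the cycle.

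Because E2F factors are known regulators of this gene set, promoter sequences are shown first, for members whose counts are described further on. RefSeq promoter windows of build GRCm38.p6, 250 bases before to 50 bases after a transcription start, were at hand for 29 of the 36 members. The windows were searched on both strands for an E2F-type motif in any of its spellings TTCCCGC, then TTGGCGC, also TTGCCGC and lastly TTCGCGC, whose matches can overlap one another. At least 1 match was found in 21 of the 29 members (72.4%), against 9.57% of all 32851 windows, 10.9% of all genes with a window and 19.9% of the 8779 genes with a window that were tested here. The box CCAAT was found in 20 of the 29 (69.0%) against 41.1% of all genes and 43.0% of tested ones, and the letters TTTGAA, found in promoters of mitotic genes, in 5 of the 29 (17.2%) against 20.2% and 14.6%, so that the members lie below or above with the background used. Such a match is a run of letters, not a measured binding site. The sequences below are of Mcm3, Chaf1a, Mcm5 and Rpa2, in order of p the first called members that held a match, and of Mcm6. With a match before the start, Chaf1a, Mcm5 and Rpa2 were the 3 with the smallest p. Mcm6 was added after its values were seen because it had no call. All of the sequences run 5′ to 3′ on the gene's strand, with the E2F-type matches in capitals. Those of Mcm3 lie just after the RefSeq start and are shown as a stretch of 30 bases, and the others are the 250 bases before that start. The first 30 bases of a transcript in the GENCODE annotation were found in the windows of Mcm3 and Rpa2. They were not found in those of Chaf1a, Mcm5 and Mcm6, whose positions rest on the RefSeq start alone.
Mcm3, chr1:20820264-20820293, minus strand: GCGGGAAaacttgggaagttTTGGCGCCAA
Chaf1a, chr17:56040166-56040415, plus strand: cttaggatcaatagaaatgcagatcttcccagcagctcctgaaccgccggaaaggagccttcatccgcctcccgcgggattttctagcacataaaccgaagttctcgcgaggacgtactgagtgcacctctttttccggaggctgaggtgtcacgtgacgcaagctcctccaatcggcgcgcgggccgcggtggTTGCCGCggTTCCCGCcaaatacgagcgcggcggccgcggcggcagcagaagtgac
Mcm5, chr8:75109259-75109508, plus strand: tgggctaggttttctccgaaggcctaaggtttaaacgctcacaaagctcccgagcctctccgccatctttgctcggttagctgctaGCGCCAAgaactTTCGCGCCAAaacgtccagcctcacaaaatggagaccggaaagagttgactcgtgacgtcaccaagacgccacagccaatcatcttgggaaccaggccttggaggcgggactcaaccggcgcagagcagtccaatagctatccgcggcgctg
Rpa2, chr4:132768110-132768359, plus strand: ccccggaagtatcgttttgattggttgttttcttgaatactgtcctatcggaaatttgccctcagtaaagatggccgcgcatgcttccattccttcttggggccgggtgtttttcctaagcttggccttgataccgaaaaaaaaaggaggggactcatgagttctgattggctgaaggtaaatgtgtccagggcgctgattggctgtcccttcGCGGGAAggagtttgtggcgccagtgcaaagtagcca
Mcm6, chr1:128359706-128359955, minus strand: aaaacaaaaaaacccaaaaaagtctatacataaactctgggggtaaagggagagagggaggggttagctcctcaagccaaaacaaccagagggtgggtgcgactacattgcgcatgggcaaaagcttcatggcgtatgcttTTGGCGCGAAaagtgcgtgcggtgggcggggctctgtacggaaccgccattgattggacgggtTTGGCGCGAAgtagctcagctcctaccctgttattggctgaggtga
A match stood in 8 of the 9 members with a window that fell after mtDNA and in 13 of the 20 that had no call. Mcm2, which fell, had no match in its window, whereas Mcm6, which had no call, had 5, of which 4 lie before the start, as overlapping pairs. Over all tested genes with a window, 7.96% of the 1747 with a match and 5.62% of the 7032 without one were called lower.

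**Figure D1:**
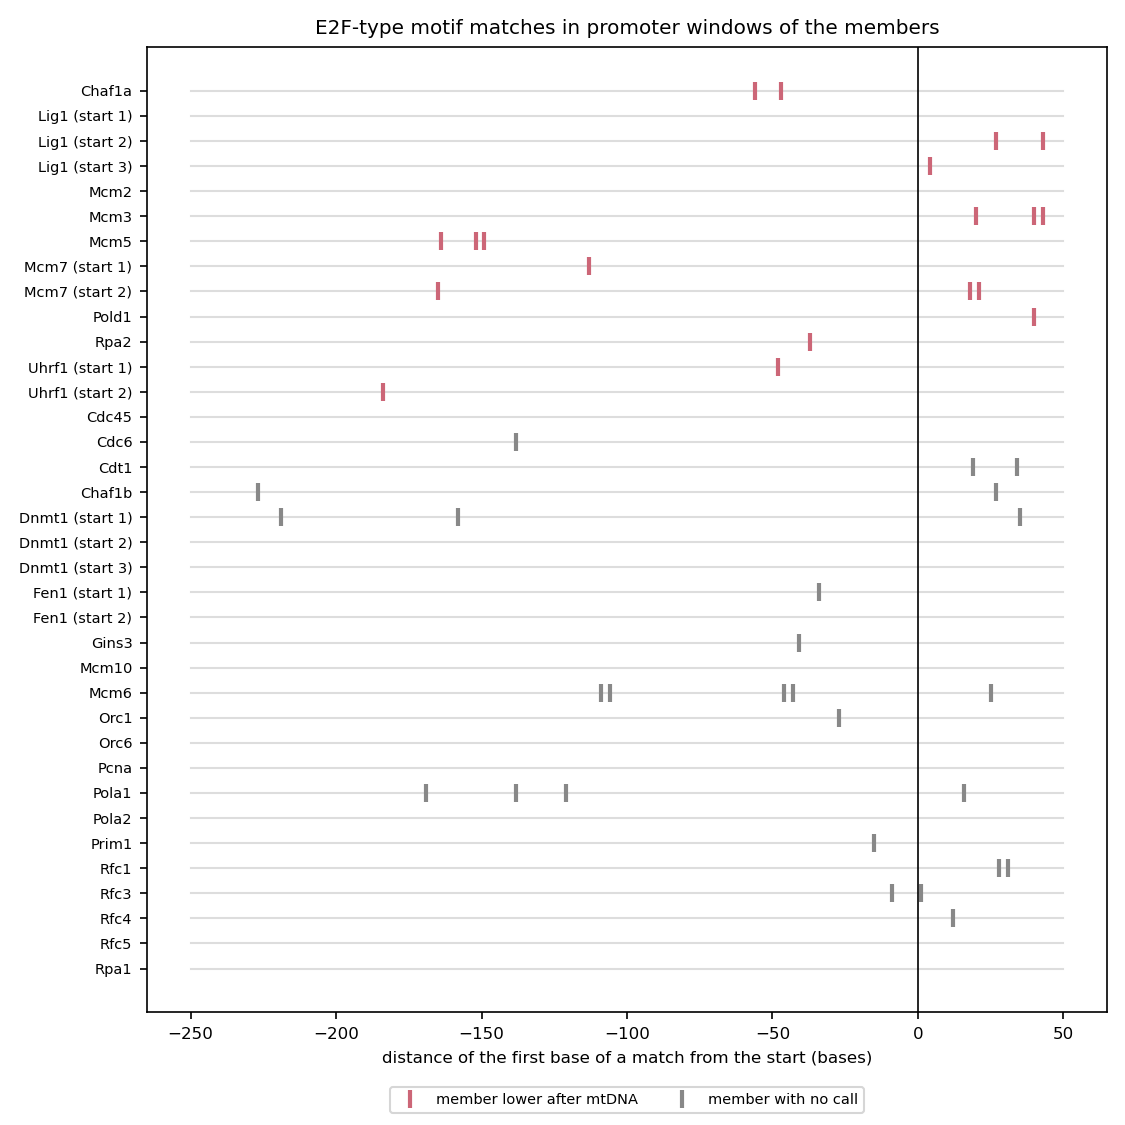
Positions of E2F-type matches (ticks) in each promoter window of the 29 members with one, as the distance in bases of the match's first base from the transcription start. Members that fell after mtDNA are in red and those with no call in grey, and both groups hold windows with several matches and windows without any.

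After transfection with mtDNA, RNA of 11 replication genes was moderately lower. Of the 36 members 11 fell and 0 rose in edgeR's quasi-likelihood test (Benjamini-Hochberg adjusted p under 0.05 over the 11190 genes tested), where 5.98% of all tested genes were called lower and 11.9% higher. At an unadjusted p under 0.05 in the same test, 18 members were lower and 0 higher. Of the 11190 tested genes 1470 were lower and 1840 higher at that threshold. The 11 were Mcm2, Mcm3, Mcm4, Mcm5 and Mcm7 of the helicase, Prim2, Pold1, Rpa2, Lig1, Chaf1a and Uhrf1. None changed as much as 2-fold: the largest fall was that of Rpa2, by 0.55 on the log2 scale, a level 31.5% lower. The median log2 fold change (mtDNA minus blank) of the members was -0.25, beside -0.01 for all tested genes, and 31 of the 36 values were below 0. In 16 members every mtDNA library lay below every blank library in CPM (the reads of a gene scaled to library size, here with TMM factors), and in 2 every mtDNA library lay above, where these shares were 15.6% and 17.9% of all tested genes.

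DESeq2, which called 1.82% of its tested genes lower and 8.98% higher, called 6 of the 11 lower and 0 members higher (Mcm2, Mcm3, Mcm5, Mcm7, Rpa2 and Chaf1a; adjusted p of 0.00159 to 0.0208). Under upper-quartile factors and under library totals alone, which put the median of all genes at -0.09 and -0.13, 19 and 20 members were lower and 0 higher, where 13.4% and 21.1% of all tested genes were lower.

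**Figure D2:**
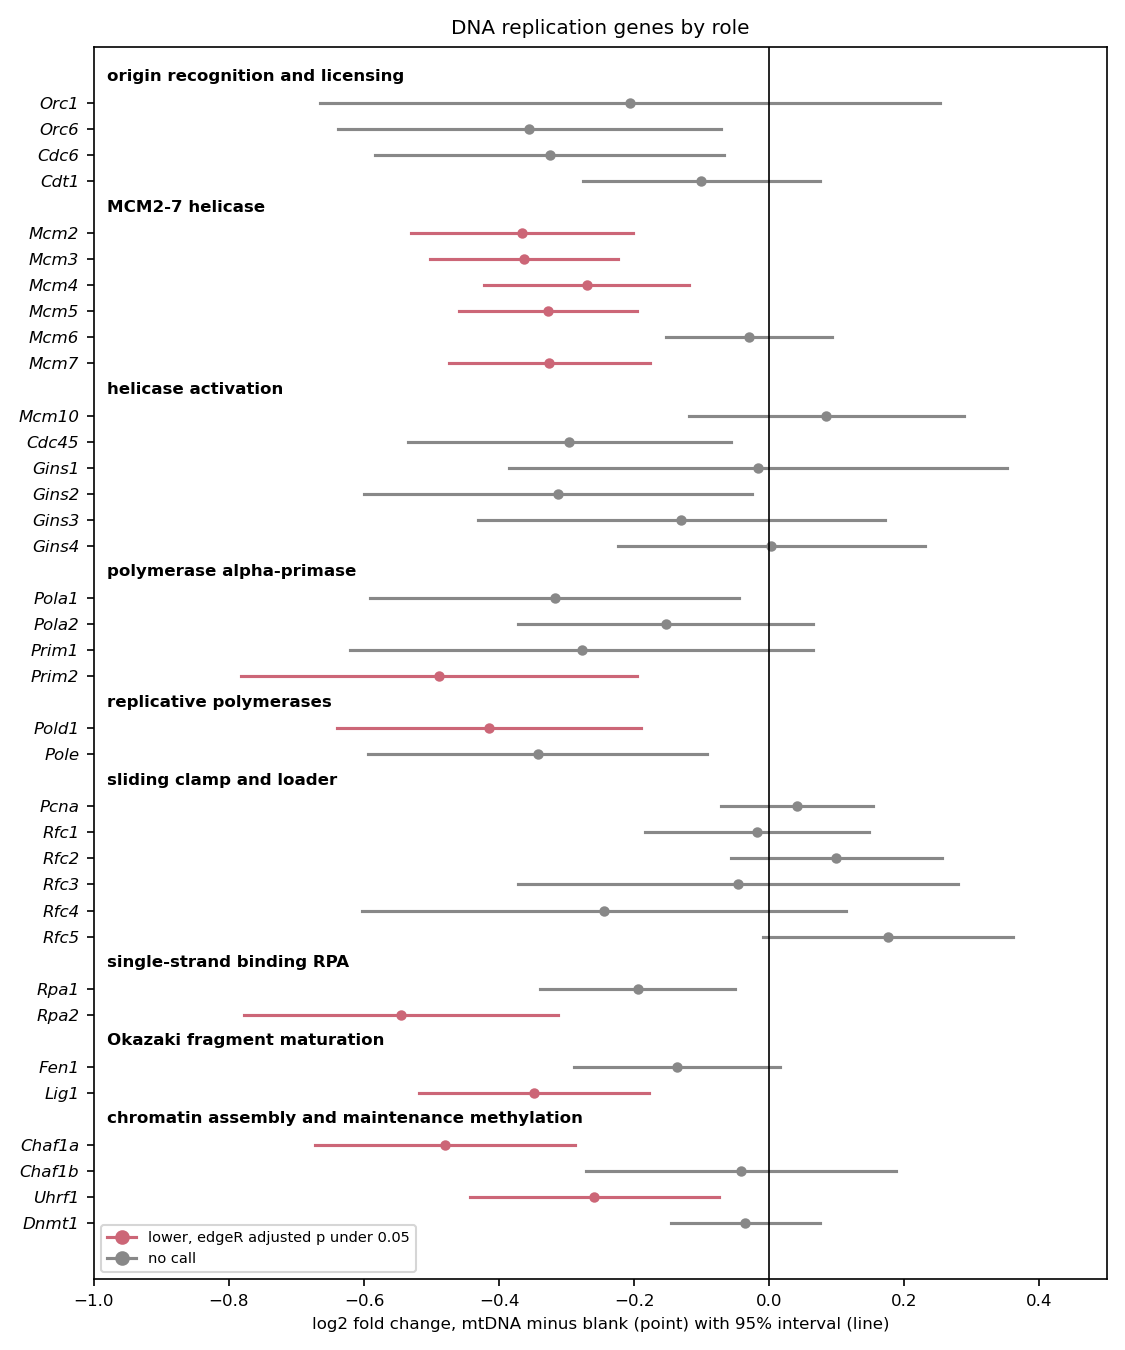
Log2 fold change (mtDNA minus blank) of each of the 36 members with its 95% interval, ordered by role, with members called lower by edgeR in red. The helicase row holds 5 of the 11 calls. The clamp and its loader hold no call, with values from -0.25 (Rfc4) to 0.18 (Rfc5).

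Total counts were 4018360 to 4911103 per library, so that a read was worth 0.200 to 0.256 CPM. The 36 members together took 9279, 11057 and 9185 reads in blank 1, 2 and 3 and 7394, 9371 and 9361 in mtDNA 1, 2 and 3. This was 0.226%, 0.231% and 0.229% of the library total in blank and 0.178%, 0.193% and 0.191% in mtDNA libraries, groups that do not overlap. Their sum was 0.821 of the blank share by library totals and 0.892 of it by TMM-scaled library size. The library mtDNA 1 stood lowest of its group in 23 of the 36 members, with a median log2 difference from the blank mean of -0.29, where mtDNA 2 and mtDNA 3 had -0.17 and -0.18. Without mtDNA 1 the members' median log2 fold change was -0.18 and 8 were called lower, where 3.82% of all tested genes were lower. In these bulk libraries fewer replicating cells and less of this RNA per cell cannot be told apart.

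**Figure D3:**
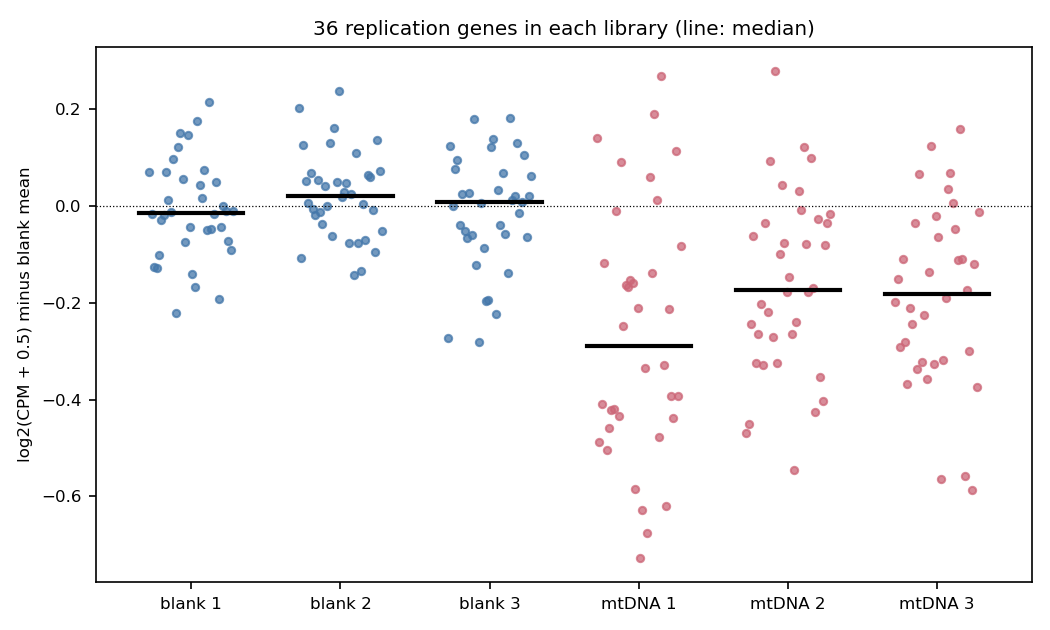
Each dot is a member's log2(CPM + 0.5) minus its mean over the 3 blank libraries, for each of the 6 libraries, and black lines are medians over the 36 members. The medians of the mtDNA libraries lie at -0.29, -0.17 and -0.18, those of the blank libraries between -0.01 and 0.02.

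Markers of cell types that the cultures could hold moved as follows, where 5.98% of all tested genes were called lower and 11.9% higher. Of 10 markers of neutrophil precursors 0 fell and 1, Chil3, rose. Mpo, the granule peroxidase of these precursors, had 433 ± 28.8 CPM (SD, n = 3) in blank and 443 ± 20.6 CPM in mtDNA cells. The precursor markers summed to 2268 to 2308 CPM in blank libraries and to 2701, 2451 and 2435 in mtDNA 1, 2 and 3. Their median log2 fold change was only 0.03. Such a sum can be carried by 1 abundant gene, and the most abundant of the 10 had a mean of 1283 CPM. Of 10 markers of mature neutrophils 2 rose and 0 fell. They summed to 7213 to 7572 CPM in blank libraries and to 8144, 7740.5 and 7577 in mtDNA 1, 2 and 3. Of 10 markers of monocytes and macrophages 5 rose and 0 fell (summed 3354 to 3430 and 4245 to 4462 CPM). The median log2 fold change of this list was 0.14, and 2 of the 10 values were below 0. Among the 5 were Fcgr1, with the largest value of the list (log2 2.54), and Ly6c2 (0.85). Ly6g, which defines granulocytic MDSCs, had only 65 and 78 reads over the 3 libraries of a group, whereas Mmp8 of the same list of mature neutrophil genes had 34185 and 33994. Csf1r, the receptor of monocytes and macrophages, had 19119 and 20650 reads, so RNA of genes from both lists was present in the fraction labelled polymorphonuclear. Whether that RNA came from separate cells cannot be told in these bulk libraries. Csf1r was also one of the 5 called (log2 0.12, edgeR adjusted p = 0.0442). It lost that call under median-ratio and upper-quartile factors, under library totals alone and when any library was left out. DESeq2 called it (adjusted p = 0.0256). Dendritic cell markers (0 of 5 tested called; summed 720 to 734 and 755 to 762 CPM), lymphocyte markers (0 of 4; 19.3 to 20.8 and 19.2 to 24.8), stromal and endothelial markers (0 of 4; 297 to 329 and 297 to 336) and those of eosinophils, basophils and mast cells (1 of 8 lower, 1 higher; 206 to 229 and 224 to 244) shifted by smaller ratios than the monocyte sum. Of 8 erythroid markers 0 passed the count filter (2.39 to 4.61 and 1.02 to 3.21 CPM), with Car1 at 0 reads. The part of these shifts in the fall of the replication genes was not tested.

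Licensing factors had no call. Cdc6, the ATPase that helps load the helicase, had 21.0, 25.0 and 22.9 CPM in blank 1, 2 and 3 and 17.1, 19.3 and 18.6 in mtDNA 1, 2 and 3. The groups did not overlap, but the difference did not pass (log2 fold change -0.33 ± 0.12, SE; edgeR adjusted p = 0.0773). Orc6, a subunit of the origin recognition complex, likewise had separate groups, with 19.4 to 22.9 CPM in blank and 14.8 to 18.8 in mtDNA libraries (log2 -0.36 ± 0.14, edgeR adjusted p = 0.0784). Orc1, the subunit that drives assembly of that complex on chromatin, was thinly counted (104 and 89 reads) and its groups overlapped (log2 -0.21, 95% interval -0.67 to 0.25). Cdt1, the partner of Cdc6 in loading, had 52.9 ± 4.01 and 49.3 ± 1.07 CPM (log2 -0.10, 95% interval -0.28 to 0.08). Per kilobase of transcript, Cdt1 (19.6 CPM per kb in blank) was the most abundant of the 4 and Orc1 (2.55) the lowest of all 36 members.

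Subunits of the MCM2-7 helicase fell in 5 of 6 genes. Mcm3 (ENSMUSG00000041859) had 119, 128 and 118 CPM in blank 1, 2 and 3 and 88.4, 101 and 94.2 in mtDNA 1, 2 and 3. Every mtDNA library lay below every blank library, and the level fell by 0.36 on the log2 scale (SE 0.067, edgeR adjusted p = 0.000372). Mcm5 (ENSMUSG00000005410), which with Mcm2 forms the gate through which the ring opens, had 152, 143 and 139.9 CPM in blank and 108, 115 and 122 in mtDNA libraries. Its groups were separate too (log2 -0.33 ± 0.064, edgeR adjusted p = 0.00065). Mcm2 (ENSMUSG00000002870), the other side of that gate, had 74.2, 79.95 and 85.0 CPM in blank and 56.0, 63.4 and 65.4 in mtDNA libraries (log2 -0.37 ± 0.079, edgeR adjusted p = 0.00185). Mcm7 (ENSMUSG00000029730) had 87.3, 87.4 and 89.8 CPM in blank and 65.2, 75.6 and 69.6 in mtDNA libraries (log2 -0.33 ± 0.072, edgeR adjusted p = 0.00231). Of the read-length windows of Mcm7 20.5% occur in other genes, and its exons overlap those of Ap4m1 on the opposite strand over 321 bases. Mcm4 (ENSMUSG00000022673), which with Mcm6 and Mcm7 makes up the catalytic core, had 85.7, 86.4 and 88.3 CPM in blank and 64.6, 75.4 and 74.9 in mtDNA libraries. It fell by 0.27 on the log2 scale (SE 0.073, edgeR adjusted p = 0.0118). In all 5 genes mtDNA 1 was the lowest library. The call of Mcm4 ended without mtDNA 1 (edgeR adjusted p = 0.0603) and in DESeq2 (adjusted p = 0.0816), and those of the other 4 stayed in both.

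Mcm6 (ENSMUSG00000026355), the sixth subunit of the ring, had no call. It had 136, 140.3 and 129 CPM in blank and 134, 132 and 132 in mtDNA libraries, so that the mtDNA values lay within the blank range (log2 -0.03, 95% interval -0.15 to 0.09; edgeR adjusted p = 0.79). Under library totals alone it had -0.15, again with no call (edgeR adjusted p = 0.0659). Relative to the mean log2 reads of Mcm2, Mcm3, Mcm4, Mcm5 and Mcm7 in the same library, a measure that does not depend on the scaling between libraries, Mcm6 stood at 0.44, 0.46 and 0.34 in blank and at 0.85, 0.65 and 0.67 in mtDNA libraries. Mcm6 was picked out after its values were seen, and its 5 partners are the called subunits, so this ratio is a description of the same counts and is given without a test.

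**Figure D4:**
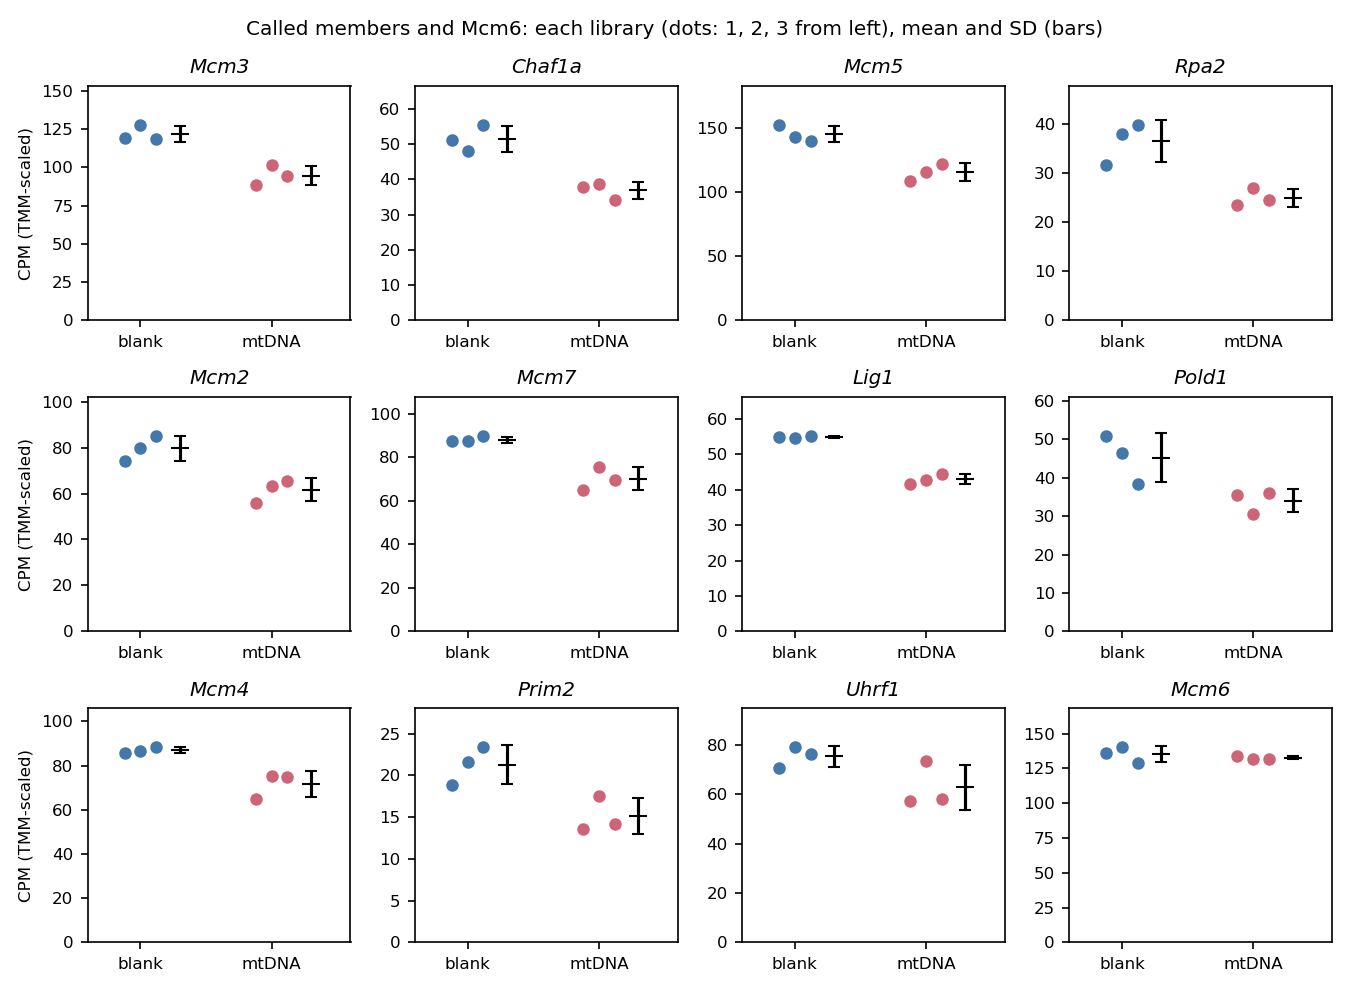
CPM of the 11 called members and of Mcm6 in each library (dots, blank blue and mtDNA red, library 1 to 3 from left) with the group mean and SD (black). In 10 of the 11 called members the groups do not overlap, Uhrf1 is the exception, and the mtDNA values of Mcm6 lie within its blank range.

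Factors that switch the loaded ring into an active helicase had no call in 6 of 6 genes. Cdc45, which joins the ring at the start of S phase, had 26.8, 32.3 and 35.6 CPM in blank and 26.3, 25.9 and 25.0 in mtDNA libraries. The groups were separated by a narrow gap between blank 1 and mtDNA 1 (log2 -0.30 ± 0.11, edgeR adjusted p = 0.0822). The 4 subunits of the GINS complex differed from one another: Gins2 had a log2 fold change of -0.31 (95% interval -0.60 to -0.03) and Gins3, with separate groups, of -0.13, while Gins1 (-0.02) and Gins4 (0.00, or -0.12 by library totals) lay near 0. Their intervals overlap, and Gins1 (151 and 148 reads) and Gins3 (191 and 173) were thinly counted. Exons of Gins2 overlap those of Gse1 on the opposite strand over 2758 bases. Mcm10, which helps to activate the helicase and is not part of the ring, had 34.4, 31.3 and 30.8 CPM in blank and 34.2, 34.3 and 33.7 in mtDNA libraries (log2 0.08, 95% interval -0.12 to 0.29, and -0.03 by library totals).

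Among genes of primer synthesis and strand extension 2 of 6 fell. Prim2 (ENSMUSG00000026134), the large subunit of primase, had 18.8, 21.6 and 23.4 CPM in blank and 13.5, 17.6 and 14.2 in mtDNA libraries. It fell by 0.49 on the log2 scale (SE 0.14, edgeR adjusted p = 0.0183). It rested on 286 and 202 reads, and DESeq2 did not call it (adjusted p = 0.138), nor did edgeR once blank 2, blank 3, mtDNA 1 or mtDNA 3 was left out (adjusted p of 0.0537 to 0.0879). Prim1, the catalytic subunit of primase, and Pola1 and Pola2 of polymerase alpha had log2 fold changes of -0.28, -0.32 and -0.15, with overlapping groups and no call. Pold1 (ENSMUSG00000038644), the catalytic subunit of polymerase delta on the lagging strand, had 50.9, 46.5 and 38.4 CPM in blank and 35.5, 30.6 and 35.98 in mtDNA libraries (log2 -0.42 ± 0.11, edgeR adjusted p = 0.00922). Its transcript is GC-rich (61.0%), and with the trend on GC content removed it had -0.28 (edgeR adjusted p = 0.0805). DESeq2 did not call Pold1 either (adjusted p = 0.0592), and edgeR did not once blank 1 (adjusted p = 0.0591) or mtDNA 2 (0.0555) was left out. Pole, the leading-strand polymerase epsilon, had 30.1 to 32.7 CPM in blank and 19.7 to 27.7 in mtDNA libraries. Its groups did not overlap and it missed the threshold (log2 -0.34 ± 0.12, edgeR adjusted p = 0.0537).

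The sliding clamp and its loader had no call in 6 of 6 genes. Pcna (ENSMUSG00000027342), the ring that tethers polymerases to DNA, was the member with the highest level per kilobase (123 CPM per kb in blank). It had 189, 190.0 and 182 CPM in blank and 195, 191 and 191 in mtDNA libraries. These groups did not overlap, with the mtDNA libraries higher by a narrow margin (log2 0.04, 95% interval -0.07 to 0.15; edgeR adjusted p = 0.672). Of its longest transcript 23.7% of read-length windows occur in other genes, most in the pseudogene Pcna-ps2, so the counting of such reads could move its level. Rfc5, a small subunit of the loader, had 39.3, 39.9 and 40.1 CPM in blank and 48.0, 42.6 and 44.5 in mtDNA libraries, again with the mtDNA libraries above (log2 0.18 ± 0.089, edgeR adjusted p = 0.197). Rfc1, the large subunit, had -0.02 (95% interval -0.18 to 0.15), and Rfc2, Rfc3 and Rfc4 had 0.10, -0.05 and -0.25, each with overlapping groups. Exons of Rfc2 and Rfc5 overlap those of Lat2 and Wsb2 on the opposite strand over 952 and 499 bases. Lat2 and Wsb2 themselves had log2 fold changes of 0.18 and 0.11, with no call. Under library totals Pcna and Rfc2 had -0.08 and -0.02 and Rfc5 0.06, so the signs of Pcna and Rfc2 depend on the scaling.

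Of the 2 subunits of RPA among the members, which coat single-stranded DNA at the fork, 1 fell. Rpa2 (ENSMUSG00000028884), the subunit phosphorylated when forks stall, had 31.8, 38.1 and 39.9 CPM in blank and 23.5, 27.0 and 24.6 in mtDNA libraries. The groups were well apart and the level fell by 0.55 on the log2 scale (SE 0.11, edgeR adjusted p = 0.00116). It was the member that also passed a test against a fold of 1.2 (edgeR adjusted p = 0.041). Rpa1, the large DNA-binding subunit, had 102 to 111 CPM in blank and 85.3 to 99.5 in mtDNA libraries (log2 -0.20 ± 0.069, edgeR adjusted p = 0.0568). The 95% intervals of Rpa2 and Rpa1, -0.78 to -0.31 and -0.34 to -0.05, overlap. Rpa3, the small subunit and not a member, had log2 -0.08 with overlapping groups (edgeR adjusted p = 0.841). In Okazaki fragment maturation Lig1 (ENSMUSG00000056394), the ligase that seals the nicks, had 54.9, 54.5 and 55.1 CPM in blank and 41.7, 42.8 and 44.5 in mtDNA libraries. It had the narrowest blank spread of the called members (54.8 ± 0.324 CPM) and fell by 0.35 on the log2 scale (SE 0.082, edgeR adjusted p = 0.00399; DESeq2 adjusted p = 0.056). Fen1, the nuclease that trims the flaps before ligation, had 77.7 ± 2.90 and 70.7 ± 4.93 CPM with overlapping groups (log2 -0.14 ± 0.073, edgeR adjusted p = 0.227). Of its read-length windows 79.9% occur in other genes, most in Gm10143 (3 and 4 reads), which overlaps it on the opposite strand over 1909 bases. The counting of such reads could move the level of Fen1.

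Of 4 genes that restore chromatin behind the fork 2 fell. Chaf1a (ENSMUSG00000002835), the large subunit of the histone chaperone CAF-1, had 51.1, 48.1 and 55.4 CPM in blank and 37.8, 38.8 and 34.1 in mtDNA libraries. The groups were far apart and it fell by 0.48 on the log2 scale (SE 0.092, edgeR adjusted p = 0.000619). Its exons overlap those of Ubxn6 on the opposite strand over 4648 bases, and Ubxn6 itself had a log2 fold change of 0.03 ± 0.080. Chaf1b, the middle subunit, had 28.02, 32.5 and 28.2 CPM in blank and 31.9, 27.8 and 27.1 in mtDNA libraries (log2 -0.04, 95% interval -0.27 to 0.19). The intervals of the CAF-1 pair, -0.67 to -0.29 for Chaf1a, do not overlap. Uhrf1 (ENSMUSG00000001228), which reads hemimethylated DNA and recruits Dnmt1 to it, had 70.6, 79.1 and 76.4 CPM in blank and 57.2, 73.5 and 58.0 in mtDNA libraries. It was called (log2 -0.26 ± 0.089, edgeR adjusted p = 0.0474) although mtDNA 2 lay within the blank range. The call was lost under DESeq2 (adjusted p = 0.188), under removal of the GC trend (log2 -0.24, edgeR adjusted p = 0.064) and when blank 2, blank 3, mtDNA 1 or mtDNA 3 was left out (0.134 to 0.194). Dnmt1, the maintenance methyltransferase and the member with the most reads (3644 and 3534), had 269.8, 262 and 284 CPM in blank and 257, 269 and 269.7 in mtDNA libraries (log2 -0.04, 95% interval -0.15 to 0.08; edgeR adjusted p = 0.715). Under library totals alone Dnmt1 had -0.15 and passed (edgeR adjusted p = 0.0366). The intervals of Uhrf1 (-0.44 to -0.07) and Dnmt1 overlap, and a difference between them was not tested.

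Levels per kilobase of longest transcript in blank cells ranged from 2.55 CPM per kb for Orc1 to 123 for Pcna. Dnmt1 (46.3 ± 1.87, SD, n = 3) and Mcm5 (42.9 ± 1.90) followed Pcna and lay within about their combined spread of each other. Next came Mcm3 (35.5 ± 1.48), Fen1 (32.8 ± 1.22), Mcm6 (31.1 ± 1.29) and Mcm7 (29.8 ± 0.470), in which neighbours differed by about the sum of their SDs or less. Mcm4 (24.2 ± 0.382) and Mcm2 (22.8 ± 1.55) were the lowest of the ring. Below 6 CPM per kb were Orc1, Pole, Rfc3, Cdc6, Prim1, Pola1, Gins2 and Gins3. Calls stood at both high and low levels: Mcm5 and Mcm3 were among the 5 highest members, Chaf1a (6.69 CPM per kb) and Prim2 (8.70) among the 11 lowest. These levels depend on the annotated length and on reads of shared stretches. The transcript of Chaf1a (7.70 kb, 51.5 CPM in blank) shares 47.2% of its read-length windows with other genes. That of Gins2 (3.90 kb) shares 70.2%, so the levels per kilobase of Chaf1a and Gins2 may be too low.

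Other genes of replication, listed by function, gave the following counts beside the same background of 5.98% lower and 11.9% higher. Of 44 tested further replication factors 8 fell and 1 rose (median log2 fold change -0.17). Clspn, the mediator of the replication checkpoint at the fork, fell from 39.2 ± 1.33 to 26.3 ± 2.23 CPM (log2 -0.58 ± 0.10, edgeR adjusted p = 0.000203). Asf1b, a histone chaperone that hands histones to CAF-1, fell from 47.0 ± 1.54 to 33.0 ± 3.82 CPM (log2 -0.50 ± 0.098, edgeR adjusted p = 0.000751). Timeless, which travels with the fork together with Tipin and Clspn, was the gene that rose, with 33.0 ± 0.370 CPM in blank and 59.0 ± 7.72 CPM in mtDNA cells (a log2 change of 0.83 ± 0.099, for which edgeR gave an adjusted p = 1.32e-06). Its libraries had 32.7, 32.9 and 33.4 CPM in blank and 67.7, 52.9 and 56.5 in mtDNA cells, with mtDNA 1 the highest. The 8 falls became 5 when blank 1, blank 2, blank 3, mtDNA 1 or mtDNA 3 was left out, one at a time.

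G1/S control genes moved in both directions, with 8 of 31 lower and 4 higher (median -0.21). Ccnd1 and Ccnd2, the D-type cyclins that carry growth signals to the cell cycle, rose from 29.3 ± 1.49 to 119 ± 9.06 CPM and from 36.1 ± 4.87 to 100.3 ± 4.82 CPM (log2 2.01 ± 0.084 and 1.47 ± 0.086, edgeR adjusted p = 3.32e-14 and 9.41e-12). Cdk4, a kinase partner of these cyclins, fell from 102 ± 1.72 to 78.5 ± 0.732 CPM (log2 -0.38 ± 0.064, edgeR adjusted p = 0.000129). Cdk6, their other kinase partner, named after its values were seen, rose, with 143 ± 7.26 CPM in blank and 166 ± 10.1 CPM in mtDNA cells (log2 0.22 ± 0.062, edgeR adjusted p = 0.0183). E2f6, a repressive member of the E2F family, fell by 0.56 on the log2 scale (SE 0.15, edgeR adjusted p = 0.0096). The activators E2f1 and E2f2, named after their values were seen, had log2 falls too (-0.29 and -0.21, edgeR adjusted p = 0.0384 and 0.0228). Of these calls, DESeq2 did not make those of Cdk6 (adjusted p = 0.0752), E2f6 (0.0583), E2f1 (0.258) and E2f2 (0.144). Cdk6 had log2 0.14 under upper-quartile factors and 0.10 under library totals, with no call in either (edgeR adjusted p = 0.11 and 0.263), and lost its call without blank 2 or mtDNA 3. E2f6 lost its call without mtDNA 1, E2f2 without blank 2, blank 3, mtDNA 1 or mtDNA 2, and E2f1 when any library was left out. The 8 falls became 1 without mtDNA 1, 3 without blank 2 and 5 without mtDNA 2.

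Of 14 tested genes of nucleotide supply 5 fell and 2 rose (median -0.19). Rrm2, the S-phase subunit of ribonucleotide reductase, fell by 0.34 on the log2 scale (SE 0.070, edgeR adjusted p = 0.00128), and Cad, which starts pyrimidine synthesis, by 0.48 (SE 0.10, edgeR adjusted p = 0.00202). Samhd1, which degrades deoxynucleotides, rose from 546 ± 35.3 to 1117 ± 61.2 CPM and Dck, a salvage kinase, from 77.1 ± 5.77 to 182 ± 3.76 CPM (log2 1.03 ± 0.054 and 1.24 ± 0.065, edgeR adjusted p = 1.38e-12 and 1.4e-12). The 5 falls became 2 without blank 2 and 3 without mtDNA 3. Of 22 checkpoint and fork repair genes 3 fell and 0 rose (median -0.23), among them Msh6 of mismatch repair (log2 -0.38 ± 0.11, edgeR adjusted p = 0.0224), whose call was lost in DESeq2 (adjusted p = 0.133) and without blank 3, mtDNA 1 or mtDNA 3. These 3 became 1 without blank 3 or mtDNA 1 and 2 without mtDNA 3. Of 25 mitotic genes 14 fell and 0 rose (median -0.28), among them Ncapg of condensin and the cytokinesis scaffold Anln (log2 -0.48 ± 0.11 for each, edgeR adjusted p = 0.00288 and 0.00329). These 14 became 6 without mtDNA 1 and 9 without blank 2 or blank 3. By DESeq2 the lower counts of the 5 lists, in the order given, were 3, 2, 2, 1 and 3. Whether the lists differ in their shares was not tested.

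**Figure D5:**
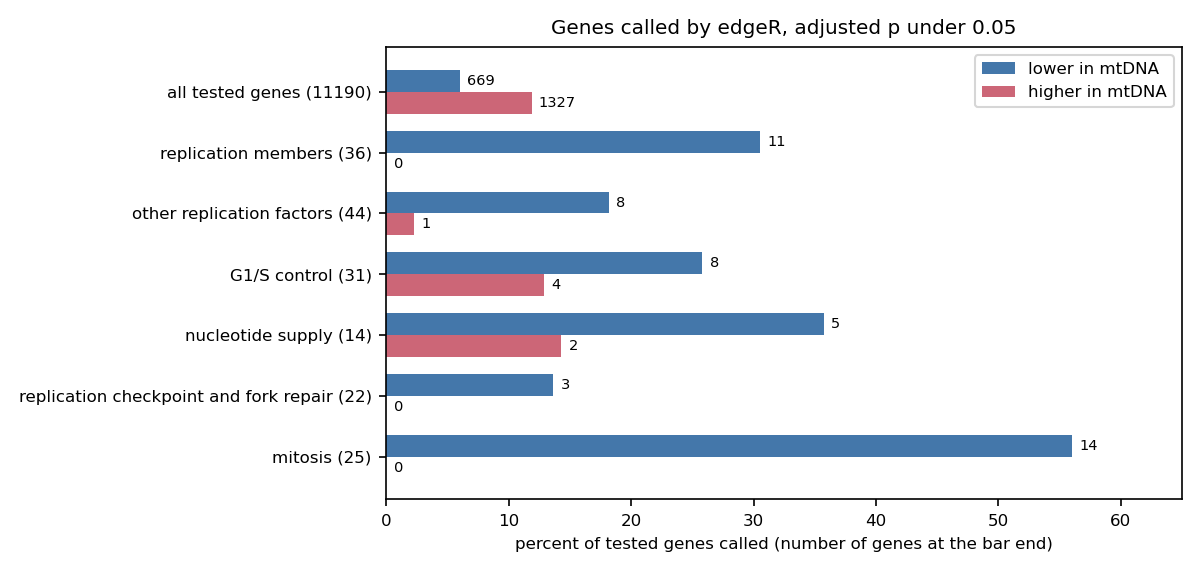
Percent of tested genes called lower (blue) and higher (red) in mtDNA cells by edgeR at adjusted p under 0.05, for all 11190 tested genes, the 36 members and 5 lists of related genes, with the number of genes at the bar ends. The replication members and the mitotic genes have 11 and 14 calls on the lower side and 0 on the higher side.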

How the data were processed

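Polyadenylated RNA of the 6 libraries was prepared with a directional kit and read single-end over 75 bases, per the labels' protocols. The authors deposited 1 table of raw counts, whole reads for each gene. STAR 2.7.10a, FastQC, DESeq2 and the build GRCm39 are named in the submitters' processing notes. Which annotation release and which strand setting the counting used is not given in the sources used here. Hence reads of genes that overlap on opposite strands may be mixed or lost.

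Symbols came from GENCODE M21, which matched 52083 of 55359 rows and also gave transcript lengths (longest transcript), GC content, shared windows of 75 bases and overlapping exons. Promoters are RefSeq's on GRCm38.p6; coordinates refer to that build alone. Groups, taken from the treatment label, were tested in R 4.3.3 by edgeR 4.0.16 (filterByExpr, TMM factors, quasi-likelihood test, two-sided, Benjamini-Hochberg over 11190 genes, threshold 0.05). SE came from the fold change and test statistic. Alternatives were other scaling factors, other filters, DESeq2 1.42.0, limma-voom (3.58.1), a test against a fold of 1.2, robust dispersion, a block, GC correction and omission of each library. The tests were checked on simulated data. Python 3.11.15 searched motifs.

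The members and lists were chosen with earlier results of these data known. Every member is accounted for. Values in every library were given for called members, and for the member with the smallest p of each role without a call. From each list up to 2 risen and 2 fallen genes with the smallest p were named, except 1 gene that is not reported here. Mcm6, Pcna, Dnmt1, Mcm10, Chaf1b, Rpa3, Cdk6, E2f1, E2f2 and the marker genes in the text were named beyond that rule, as was the library detail of Timeless.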

Additional observations from a re-analysis of the deposited data

How the results depend on the processing

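The direction of the 11 called members was the same in all 17 alternatives, and no member's call turned to the other side in any of them. All of them reuse the same counts. The test against a fold of 1.2 and robust dispersion keep the main fold changes, so direction could not differ there. The count of 11 lower members became 19 under upper-quartile factors, 20 under library totals alone, 6 in DESeq2 and 1 in the test against a fold of 1.2, and 8 to 12 when 1 library was left out; 0 were higher in every alternative. Over all genes, the 669 lower became 1504, 2356, 187 and 55 in those 4 alternatives and 410 (without blank 3) to 522 when 1 library was left out, and the 1327 higher became 861 under library totals and 590 against a fold of 1.2. A change of scaling shifts all genes by almost the same amount. The members' median minus that of all genes (-0.24) therefore could not differ between the 4 scalings. Without mtDNA 1 it was -0.17. The difference of -0.0408 percentage points in the summed share was -0.0238 on TMM-scaled library size and -0.0437 to -0.0363 when 1 library was left out. The labels give no replicate number shared between groups. In a fit with neighbouring title numbers as a block 13 members were lower, where 6.68% of all tested genes were lower. Neighbours deviated together only weakly (correlation 0.0400 to 0.0454). Prim2 and Uhrf1 were each called in 2 of the 6 fits without a library. Members with under 200 reads in a group (Orc1, Gins1, Gins3, Rfc3, Rfc4 and, in mtDNA, Prim1) have 95% intervals that do not exclude changes of the size seen in the helicase.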
